A study of Glycine max with 12 samples.

Results

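WRI1A (Glyma.08G227700), WRI1B (Glyma.15G221600), DGAT1A (Glyma.13G106100) and DGAT1b (Glyma.17G053300) are the 4 soybean genes described here, out of 43517 gene models counted. They were chosen by gene identifier, as regulators and enzymes of seed oil. The study sequenced RNA from plants of OE-34, a single transgenic line of Glycine max that overexpresses the CCCH zinc finger gene GmZF351, and from the cultivar Jack as control, labelled WT. Leaves and roots were cut from pot-grown plants at the V1 stage, with the first trifoliate leaf fully open. The 12 libraries form 4 groups of 3, namely the leaf of OE-34 and of Jack (OE leaf, WT leaf) and the root of OE-34 and of Jack (OE root, WT root). No source used here gives the promoter that drives the transgene or says how many plants made a sample. The p-values therefore reflect only how far these samples scatter, and the effect of GmZF351 cannot be told apart from other features of the 1 line.

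WRINKLED1 (WRI1) proteins are AP2/ERF transcription factors that switch on plastid glycolysis and fatty acid synthesis, and they are best known from developing seeds. DGAT1 enzymes of the endoplasmic reticulum join an acyl group to diacylglycerol, the last step in making triacylglycerol, the storage oil. GmZF351 is known for raising seed oil, and WRI1 and DGAT1 genes have been named among its targets in seed tissue or in transgenic Arabidopsis. The comparison of OE with WT asks whether these targets respond in leaf and root, where little storage oil is made.

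The libraries held 16885874 to 19041634 counts and the tissue labels matched their markers. The photosynthesis genes RBCS2 and RCA11 summed to 368 and 207 counts over the OE root libraries, against 314456 and 736413 over the OE leaf libraries. The root gene NFR5A had 2348 counts in OE root and 0 in OE leaf, and 1479 in WT root and 0 in WT leaf. The other root gene, IFS1, was higher in root but not confined to it. It averaged 608 CPM in OE root against 94.5 CPM in OE leaf. In WT plants it averaged 828 CPM in root against 87.3 CPM in leaf. GmZF351 (Glyma.06G290100) gave 32486 to 39884 counts per library in leaf of OE plants, against at most 1 in leaf of WT plants. Its root counts were 31406 to 35104 in OE plants, against at most 4 in WT plants. Reads of a transgene with the same coding sequence and of the native gene cannot be told apart in these counts. Of 3 seed marker genes that could be matched by name, the storage protein gene GY4 and the oil body gene OLEO1 had 0 counts in every library, while the conglycinin gene CG-1 reached 8 counts in an OE root library and 3 in a WT root library. Their summed level was 0 in both leaf groups, 0.122 to 0.334 CPM in OE root and at most 0.141 CPM in WT root.

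All 4 genes passed the low-count filter, but they sit at very different depths. WRI1A lies on chromosome 8 (18539712 to 18545318, minus strand, 7 exon blocks, 2082 bp of exon) and WRI1B on chromosome 15 (40067763 to 40073180, plus strand, 7 exon blocks, 2127 bp), in the annotation Wm82.a2.v1. DGAT1A lies on chromosome 13 (22039617 to 22047859, minus strand, 16 exon blocks, 1933 bp) and DGAT1b on chromosome 17 (4054508 to 4062724, plus strand, 17 exon blocks, 2133 bp). A model on the opposite strand, Glyma.08G227800, lies inside the span of WRI1A and shares 0 bp of its exons. It had at most 9 counts in any library. The genes form 2 pairs of duplicated copies, and the count asked for no reads that map to several places, so reads shared by both copies of a pair may be missing from their levels.

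Per length, DGAT1A was the most abundant of the 4 in every group and WRI1B the least. In leaf DGAT1A averaged 4.05 ± 0.732 CPM per kb of exon in OE plants and 4.29 ± 0.142 in WT plants, and in root 6.39 ± 0.308 in OE plants and 7.62 ± 0.512 in WT plants (SD, n = 3 each). The median of all tested genes was 4.44 and 4.36 CPM per kb in leaf of OE and WT plants and 4.06 and 4.23 CPM per kb in their roots, so DGAT1A stood close to the middle of the genes in leaf and above it in root. WRI1B averaged 0.174 ± 0.0506 CPM per kb in OE leaf and 0.168 ± 0.157 in WT leaf, a level under which 9.61% and 9.18% of the tested genes lay. In root it averaged 1.62 ± 0.333 CPM per kb in OE plants and 1.72 ± 0.0528 in WT plants, above 29.2% and 29.6% of the tested genes. The WRI1 genes were thus scarce in leaf and moderate in root, and the DGAT1 genes were of middle abundance in both tissues.

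**Figure D1:**
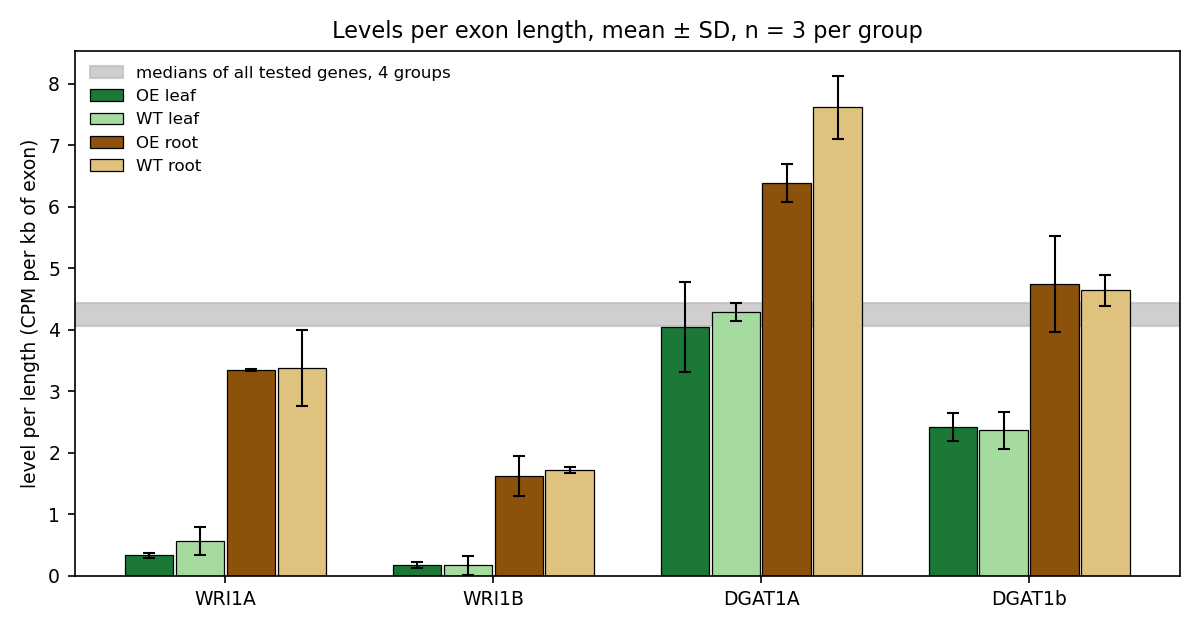
Mean level per exon length (CPM per kb, TMM-scaled) of each gene in leaf (OE, WT) and root (OE, WT), with SD over 3 libraries. The grey band spans the medians of all tested genes in the 4 groups. The means of both WRI1 genes stay under 0.6 CPM per kb in leaf, and only the DGAT1 genes reach the grey band.

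WRI1A, the more abundant WRI1 copy, was low in leaf. It had 0.782, 0.609 and 0.666 CPM in the OE leaf libraries (13, 10 and 10 counts), against 0.908, 1.72 and 0.906 CPM in the WT leaf libraries (11, 21 and 11 counts). Every OE leaf library was below every WT leaf library, and 1 WT leaf library stood above the other two. The log2 fold change (log2FC) of OE over WT in leaf was -0.77 (SE 0.370, 95% interval -1.53 to -0.02), with an edgeR quasi-likelihood p of 0.0444 before and 0.0956 after Benjamini-Hochberg adjustment. It missed the threshold of 0.05 used for all calls here. Without WT leaf replicate 2, the high library, the log2FC was -0.40 (edgeR adjusted p = 0.502), and when libraries were scaled to their total counts it was -0.39 (edgeR adjusted p = 0.378).

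In root, WRI1A had 7.01, 6.93 and 6.97 CPM in OE plants (168, 170 and 175 counts) and 5.55, 7.91 and 7.60 CPM in WT plants (118, 168 and 168 counts). The OE root libraries lay within the range of the WT root libraries, 1 of which was lower than the others. The log2FC was -0.01 (SE 0.187, 95% interval -0.39 to 0.37, edgeR adjusted p = 0.984). This interval spans 0.762-fold to 1.29-fold.

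WRI1B, the second copy, gave too few leaf counts to resolve a moderate change. The OE leaf libraries had 8, 6 and 4 counts (0.481, 0.366 and 0.267 CPM), against 5, 0 and 8 counts (0.413, 0 and 0.659 CPM) in WT leaf. The WT leaf values lay on both sides of the OE leaf values, and an observed 0 leaves room for an expected count of up to 3. Its leaf log2FC of 0.07 (SE 0.628, edgeR adjusted p = 0.967) had a 95% interval from 0.431-fold to 2.55-fold, and without single libraries it ranged from -0.51 to 0.84.

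Root libraries held more WRI1B reads. The OE root libraries had 4.05, 3.63 and 2.67 CPM (97, 89 and 67 counts), and the WT root libraries had 3.67, 3.53 and 3.76 CPM (78, 75 and 83 counts). The 3 WT root values lay close together inside the wider range of OE root, of which 1 library was the lowest of the 6. The log2FC was -0.08 (SE 0.275, 95% interval -0.64 to 0.48, edgeR adjusted p = 0.863).

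DGAT1A had 6.20, 8.47 and 8.79 CPM in OE leaf (103, 139 and 132 counts), against 8.33, 8.53 and 7.99 CPM in WT leaf (101, 104 and 97 counts). One OE leaf library was the lowest of the 6, and the other two overlapped the WT leaf range or stood just above it. The leaf log2FC was -0.09 (SE 0.155, 95% interval -0.40 to 0.23, edgeR adjusted p = 0.706).

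Among the comparisons of OE with WT, the clearest separation of DGAT1 values was that of DGAT1A in root, though it too missed the threshold. DGAT1A had 12.9, 12.4 and 11.7 CPM in OE root (310, 304 and 295 counts), against 13.6, 15.3 and 15.3 CPM in WT root (289, 325 and 338 counts). Every OE root library was below every WT root library. The log2FC was -0.25 (SE 0.129, 95% interval -0.52 to 0.01), a fold of 0.839, with an edgeR quasi-likelihood p of 0.0582 before and 0.143 after adjustment. Across the alternative settings and left-out libraries its adjusted p ran from 0.108 to 0.381, and its log2FC stayed between -0.31 and -0.16.

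DGAT1b had genotype effects near 0 in both tissues. In leaf it had 4.63, 5.60 and 5.26 CPM in OE plants (77, 92 and 79 counts), against 5.61, 4.35 and 5.19 CPM in WT plants (68, 53 and 63 counts). The 2 sets of leaf libraries covered nearly the same range. In root the OE libraries had 9.93, 11.9 and 8.56 CPM (238, 291 and 215 counts) and the WT libraries 9.78, 9.42 and 10.5 CPM (208, 200 and 232 counts), again overlapping, with the highest and the lowest library both from OE root. The log2FC was 0.03 in leaf (SE 0.187, 95% interval 0.786-fold to 1.33-fold, edgeR adjusted p = 0.930) and 0.03 in root (SE 0.148, 95% interval 0.829-fold to 1.26-fold, edgeR adjusted p = 0.913).

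**Figure D2:**
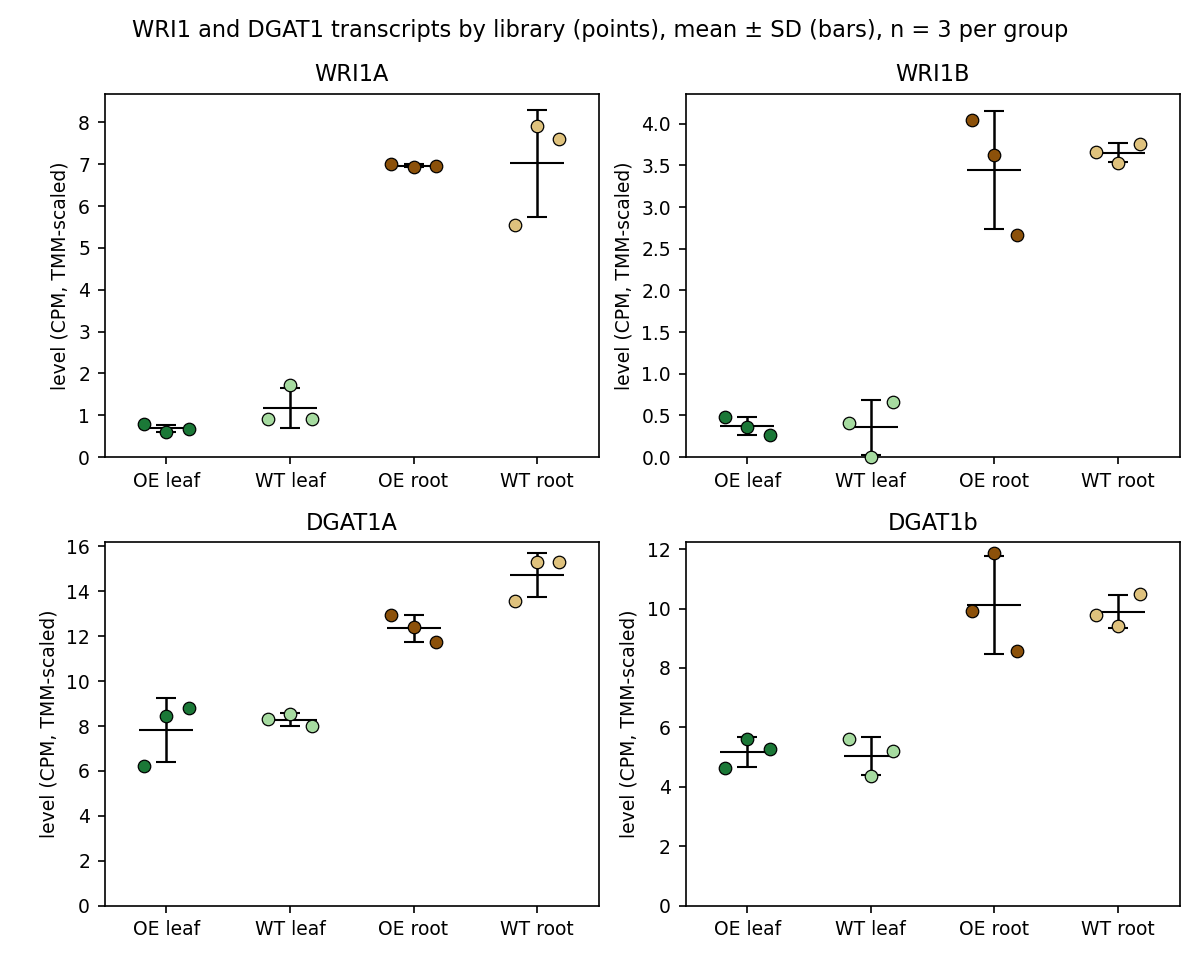
Level (CPM, TMM-scaled, linear axes from 0) of WRI1A, WRI1B, DGAT1A and DGAT1b in each of the 12 libraries, as points, with the mean and SD of each group of 3. OE and WT points overlap within a tissue except for WRI1A in leaf and DGAT1A in root, and root points lie above leaf points in all 4 panels. Neither of these exceptions passed the adjusted threshold, and how many of all tested genes lack overlap was not counted.

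Counted together, 0 of the 4 genes passed the threshold for OE against WT in leaf by edgeR, where 40.4% of the 35968 tested genes did (18.3% higher and 22.1% lower in OE). WRI1B is counted here although it passed the filter through its root counts. With 4 to 8 counts per OE leaf library and 0 to 8 per WT leaf library, its missing leaf call says little. One of the 4, WRI1A, had an unadjusted p under 0.05, against 17061 of the 35968 tested genes. In root, 0 of 4 passed by edgeR, where 30.1% of all tested genes passed (12% higher and 18.1% lower in OE). There 0 of 4 had an unadjusted p under 0.05, against 14129 of the 35968 tested genes. DESeq2 also called 0 of 4 in either tissue, where it called 14562 of the tested genes in leaf and 10910 in root. Setting the effects against those of all genes, 75.4% of the tested genes had a smaller absolute log2FC in leaf than WRI1A, 14.7% than DGAT1A, 12% than WRI1B and 7.15% than DGAT1b. In root these shares were 46.5% for DGAT1A, 17.6% for WRI1B, 7.15% for DGAT1b and 3.21% for WRI1A. DGAT1A and DGAT1b thus had leaf estimates among the smaller ones of the transcriptome under TMM, with intervals as wide as given above. The WRI1B leaf estimate also ranked low, but its interval of 0.431-fold to 2.55-fold does not show that the effect was small.

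The direction of small leaf effects depended on scaling. TMM factors of the OE leaf libraries were 0.862 to 0.889 and those of the WT leaf libraries 0.665 to 0.676, and scaling to total counts moved the median log2FC of all genes in leaf by 0.38. The leaf markers differed between genotypes as well. RBCS2 averaged 6515 CPM in OE leaf and 13645 CPM in WT leaf and RCA11 averaged 15308 CPM in OE leaf and 25975 CPM in WT leaf. Their part in the leaf results was not tested. Under total counts DGAT1A had a leaf log2FC of 0.30 (edgeR adjusted p = 0.105), turning its sign, and DGAT1b had 0.41 (edgeR adjusted p = 0.0595). Relative to the median of all genes, the leaf log2FC was -0.77 for WRI1A, -0.08 for DGAT1A and 0.04 for DGAT1b under total counts, and -0.77, -0.09 and 0.03 for the same genes under TMM.

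Whether the OE effect differed between root and leaf was tested directly, as the effect in root minus that in leaf. The difference was 0.76 for WRI1A (SE 0.414, 95% interval -0.08 to 1.61, edgeR adjusted p = 0.198), with an unadjusted p of 0.0744, and without WT leaf replicate 2 it was 0.39 (edgeR adjusted p = 0.610). It was -0.15 for WRI1B (SE 0.690, edgeR adjusted p = 0.935), -0.17 for DGAT1A (SE 0.201, edgeR adjusted p = 0.617) and -0.00 for DGAT1b (SE 0.235, edgeR adjusted p = 1.0). No gene of the 4 passed by edgeR or DESeq2, where edgeR called 22.8% of all tested genes. For WRI1B the few leaf counts leave this difference poorly resolved. At an unadjusted edgeR p under 0.05 there were 0 of the 4, against 12091 of the 35968 tested genes.

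The tissue was the factor that separated these genes. In WT plants all 4 were higher in root than in leaf, with no overlap between libraries, where 41.8% of the tested genes were called higher and 35.9% lower in root. How many of all tested genes also lacked overlap was not counted. WRI1B was 10.1-fold higher in WT root than in WT leaf (95% interval 5.48 to 18.5, edgeR adjusted p = 2.3e-08, log2FC 3.33) and WRI1A 5.93-fold higher (4.11 to 8.54, edgeR adjusted p = 1.0e-10). The WRI1B value rests on 13 WT leaf counts, and its log2FC was 2.75 without WT leaf replicate 2 and 4.11 without WT leaf replicate 3. The enzyme genes differed less, at 1.96-fold for DGAT1b (1.54 to 2.50, edgeR adjusted p = 6.0e-06) and 1.78-fold for DGAT1A (1.45 to 2.18, edgeR adjusted p = 4.4e-06). In bulk tissue a difference in the number of cells of a type cannot be told apart from a difference in RNA per cell.

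In OE plants the same 4 genes were again higher in root than in leaf, where 40.0% of tested genes were called higher and 37.4% lower in root. WRI1A was 10.1-fold higher in OE root than in OE leaf (95% interval 6.89 to 14.7, edgeR adjusted p = 4.1e-13) and WRI1B 9.06-fold higher (5.16 to 15.9, edgeR adjusted p = 1.2e-08). DGAT1b was 1.96-fold higher (1.56 to 2.46, edgeR adjusted p = 2.7e-06) and DGAT1A 1.58-fold higher (1.30 to 1.93, edgeR adjusted p = 7.9e-05). All 8 of these calls stayed past the threshold under every alternative run, libraries left out included. With total counts the tissue effects were larger, since that scaling moved the median log2FC of all genes by 0.91 in WT and 0.62 in OE.

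**Figure D3:**
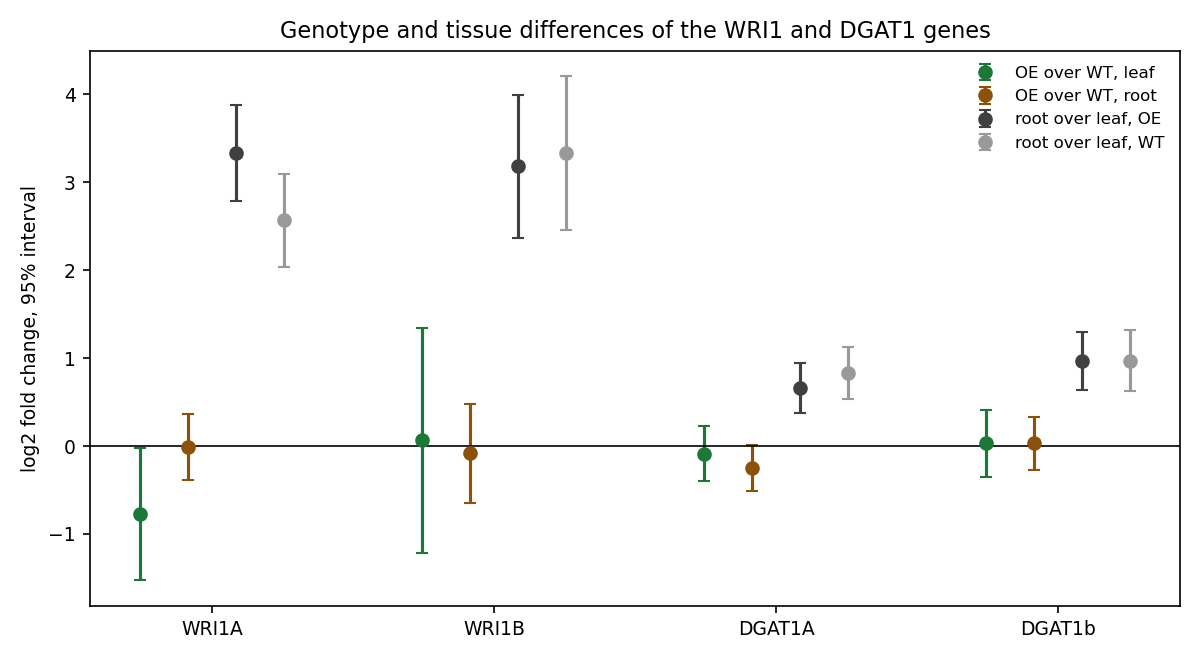
Log2 fold change with 95% interval from the edgeR model, for OE over WT in leaf and in root and for root over leaf in OE and in WT plants. The genotype effects lie near 0, that of WRI1A in leaf excepted, while all 8 tissue effects lie above 0 with intervals clear of it.

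The group means fell in the following orders, described without a test of the order. WRI1A ran from WT root (7.02 ± 1.29 CPM) through OE root (6.97 ± 0.0407) and WT leaf (1.18 ± 0.471) to OE leaf (0.686 ± 0.0882). DGAT1A ran in the same order, from WT root (14.7 ± 0.990 CPM) through OE root (12.4 ± 0.596) and WT leaf (8.29 ± 0.274) to OE leaf (7.82 ± 1.41). WRI1B had WT root (3.65 ± 0.112 CPM) before OE root (3.45 ± 0.708) and OE leaf (0.371 ± 0.108) before WT leaf (0.357 ± 0.333), and DGAT1b had OE root (10.1 ± 1.66) before WT root (9.90 ± 0.549) and OE leaf (5.17 ± 0.493) before WT leaf (5.05 ± 0.642). Neighbours of 1 tissue did not pass the test in any of the 4 orders, and root against leaf of 1 genotype did in all of them.

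In each pair 1 copy gave the larger share in every library. WRI1A made up 62.4%, 63.0% and 71.9% of the pair per exon length in OE leaf, against 69.2%, 100% and 58.4% in WT leaf, where the library at 100% had 21 counts of WRI1A and 0 of WRI1B. In root its share was 63.9%, 66.1% and 72.7% in OE plants and 60.7%, 69.6% and 67.4% in WT plants. WRI1A was the larger copy in 12 of 12 libraries, with overlapping genotypes in both tissues.

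DGAT1A likewise was the larger copy of its pair in 12 of 12 libraries. Its share per exon length was 59.6%, 62.5% and 64.8% in OE leaf and 62.1%, 68.4% and 62.9% in WT leaf. In root it was 59.0%, 53.5% and 60.2% in OE plants, all below the 60.5%, 64.2% and 61.7% of WT plants. The mean log2 ratio of DGAT1A to DGAT1b in root was 0.44 in OE plants and 0.71 in WT plants, a difference of -0.27 with an exact two-sided permutation p of 0.1. That is the smallest p that 3 against 3 libraries allow, and over the 8 tests made (2 pairs, 4 comparisons of groups) the adjusted p was 0.8. The tests of the WRI1 pair that involve WT leaf used 2 WT leaf libraries, since the library with 0 WRI1B counts gives no ratio. The other 7 exact p-values ran from 0.2 to 0.8.

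**Figure D4:**
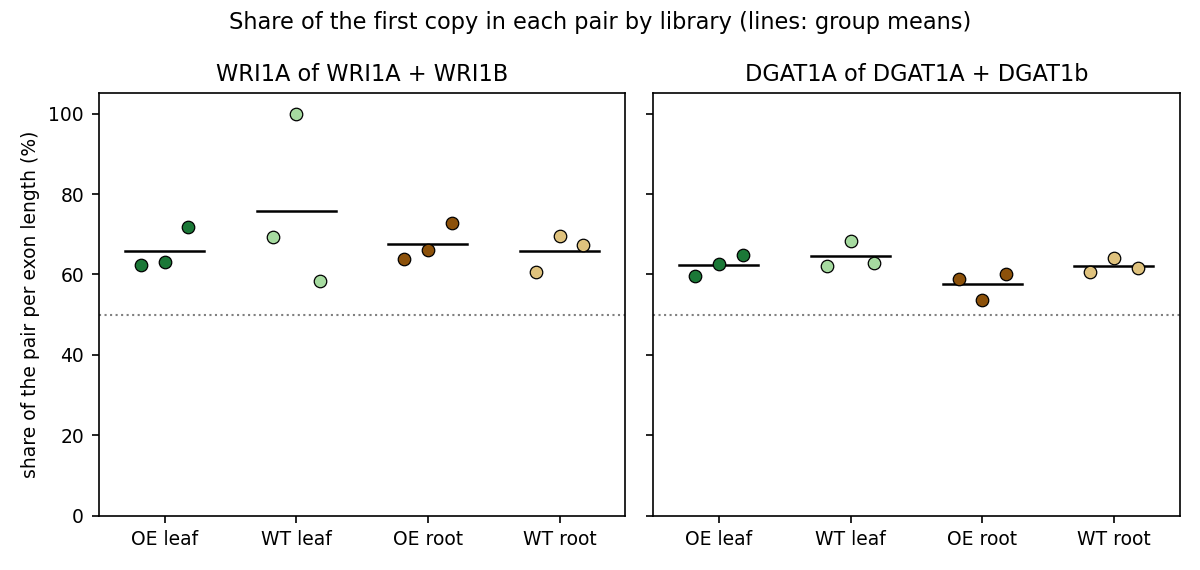
Share of WRI1A in the WRI1A and WRI1B sum (left) and of DGAT1A in the DGAT1A and DGAT1b sum (right), per exon length in percent, by library, with lines at group means and a dotted line at equal shares. All points lie above 50%, and the WT leaf point at 100% is the library with 0 WRI1B counts.

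The profiles of the 2 copies over the 12 libraries were alike, with Pearson's r of log2 CPM of 0.839 between WRI1A and WRI1B and 0.913 between DGAT1A and DGAT1b. Other genes ran closer to each copy than its partner did. Among 35967 other tested genes the most alike to WRI1A were Glyma.04G044600 (r = 0.995) and Glyma.11G021900 (r = 0.995), and to WRI1B Glyma.12G001300 (r = 0.989) and Glyma.04G247600 (r = 0.985). Closest to DGAT1A were Glyma.12G051100 (r = 0.988) and Glyma.03G241500 (r = 0.982), and to DGAT1b Glyma.17G077000 (r = 0.983) and Glyma.18G019600 (r = 0.983). The 12 points share tissue and library scaling, and much of each r is the gap between root and leaf. Glyma.04G044600, for example, averaged 8.78 and 15.8 CPM in leaf of OE and WT plants, and 98.8 and 94.6 CPM in root of OE and WT plants.

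Other genes of oil and fatty acid synthesis were read from a list of 54 identifiers. Of these, 27 could be given a name from the reference, and 18 passed the low-count filter over the 4 groups. SACPD-C passed through its root counts. With 1 count over the OE leaf libraries and 1 over the WT leaf libraries it could not be called in leaf, but it is counted among the 18. In leaf 9 of the 18 fell and 2 rose in OE, 61.1% called against 40.4% of all tested genes, with a median log2FC of -0.26 against 0.00 over all tested genes. In root 1 of the 18 rose and 0 fell by edgeR, 5.56% called against 30.1%, with a median of -0.05 against -0.02. At an unadjusted edgeR p under 0.05, 2 were higher and 3 lower in OE root, where 14129 of all 35968 tested genes were under 0.05. DESeq2 called 2 higher and 0 lower in root, where it called 4373 of all tested genes higher and 6537 lower.

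Of the other acyltransferase genes, 0 of 2 passed for OE against WT in either tissue by edgeR with TMM or by DESeq2. Both also had an unadjusted p above 0.05. By edgeR 17061 of the 35968 tested genes were under 0.05 in leaf and 14129 in root. DGAT1C, a further DGAT1 gene, had a log2FC of -0.12 in leaf (95% interval -0.65 to 0.41) and 0.13 in root (-0.33 to 0.59). DGAT2D, from the unrelated DGAT2 family of the same reaction, had 0.18 in leaf (-0.10 to 0.46) and -0.10 in root (-0.35 to 0.16). Neither was called between tissues under TMM, with root over leaf log2FC of 0.39 (DGAT1C) and -0.06 (DGAT2D) in OE plants and 0.14 and 0.22 for the same genes in WT plants. Under total counts both were called higher in root, at 1.01 and 0.57 in OE plants and 1.04 and 1.13 in WT plants, and DGAT2D was called higher in OE leaf than in WT leaf (log2FC 0.56, SE 0.139, edgeR adjusted p = 0.000894). Of all 35968 tested genes, 21293 were then called higher in root in OE plants and 23894 in WT plants, and 15977 in OE leaf over WT leaf.

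Plastid fatty acid synthesis, the step that WRI1 is known to control, had 6 of 10 tested genes lower and 1 higher in OE leaf, where 22.1% of all tested genes were lower and 18.3% higher. The 10 include SACPD-C, which could not be called in leaf. Under total counts 1 of the 10, KASII-B, was lower and 3 were higher, and KASI and KASII-A were no longer called. With that scaling 3960 of all 35968 tested genes were lower and 15977 higher in OE leaf. KASII-B, which elongates palmitoyl to stearoyl chains, had 84.6, 79.0 and 74.9 CPM in OE leaf, against 165, 147 and 159 CPM in WT leaf. All 3 OE values lay below the WT values, and the log2FC was -0.98 (SE 0.084, edgeR adjusted p = 1.9e-11). Its paralog KASII-A averaged 67.6 ± 2.16 CPM in OE leaf and 88.9 ± 4.76 CPM in WT leaf (log2FC -0.40, SE 0.089, edgeR adjusted p = 0.000539).

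KASI, which extends shorter acyl chains, averaged 37.8 ± 1.90 CPM in OE leaf and 52.8 ± 8.85 CPM in WT leaf (log2FC -0.48, SE 0.103, edgeR adjusted p = 0.000288). KASIII, which starts the chain, the biotin carrier gene ACCB-2 and the stearoyl desaturase gene SAD2 were the other 3 that fell, with log2FC of -0.33, -0.26 and -0.26. FATB1a, a thioesterase gene that releases mainly saturated chains, was the 1 that rose, with 72.9 ± 4.12 CPM in OE leaf against 47.7 ± 2.92 CPM in WT leaf (log2FC 0.61, SE 0.087, edgeR adjusted p = 6.9e-07).

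Of 5 tested desaturase genes in leaf, 2 fell and 1 rose under TMM, where 22.1% of all tested genes fell and 18.3% rose. Under total counts 0 of the 5 fell and 2 rose (FAD2-2B and FAD2-2C), where 3960 of all 35968 tested genes fell and 15977 rose. FAD2-2B, an oleate desaturase gene, averaged 959.8 ± 52.6 CPM in OE leaf and 695.8 ± 16.5 CPM in WT leaf (log2FC 0.46, SE 0.079, edgeR adjusted p = 1.5e-05), while the linoleate desaturase genes FAD3A and FAD3C had log2FC of -0.38 and -0.35. NF-YA02, an NF-Y subunit gene and the 1 tested regulator of 5 on the list, averaged 21.4 ± 1.55 CPM in OE leaf and 29.6 ± 2.51 CPM in WT leaf (log2FC -0.47, SE 0.132, edgeR adjusted p = 0.00459). It overlaps 1 other gene model, and the count did not use strand. The counts of calls in leaf turned with scaling, since under total counts 6 of the 18 rose and 1, KASII-B, fell. The calls over all tested genes turned as well, to 15977 higher and 3960 lower in OE leaf. The list median log2FC was then 0.12, against 0.38 over all tested genes.

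The 1 list gene called in root was SACPD-C, a stearoyl desaturase gene, with 21.2, 22.7 and 21.0 CPM in OE root, against 12.5, 16.5 and 15.2 CPM in WT root. The genotypes did not overlap, and the log2FC was 0.55 (SE 0.134, edgeR adjusted p = 0.00175). In leaf it had 1 count over the 3 OE libraries and 1 over the 3 WT libraries.

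**Figure D5:**
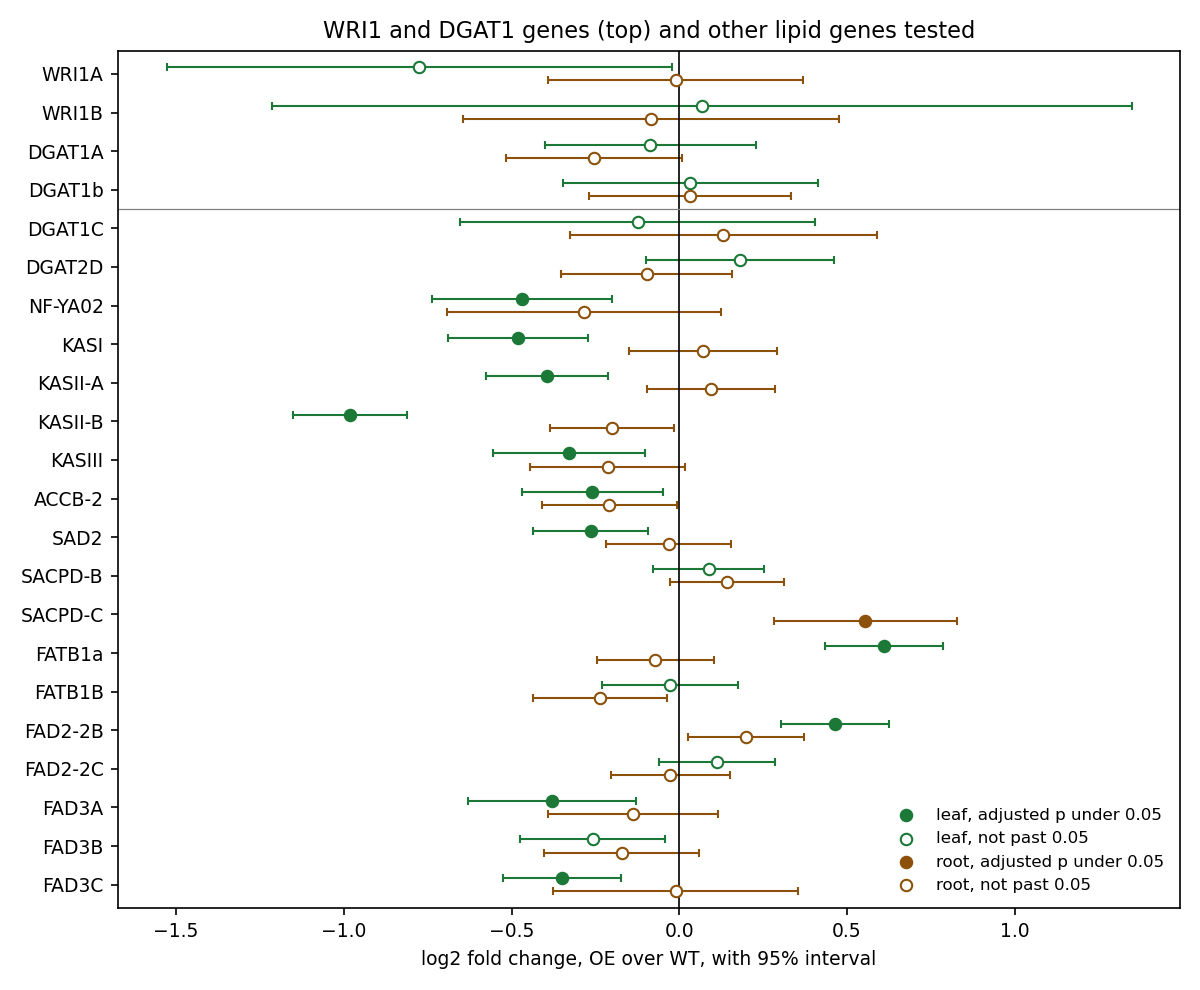
Log2 fold change of OE over WT with 95% interval from the edgeR model, in leaf and root, for the 4 WRI1 and DGAT1 genes (top) and 18 other lipid genes; filled points passed an adjusted p of 0.05. SACPD-C has no leaf point because each genotype had 1 count there, and the filled points are 11 in leaf and 1 in root, none of them WRI1 or DGAT1.

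Between tissues the list ran the other way from the WRI1 and DGAT1 genes. In OE plants 14 of the 18 were lower and 1 was higher in root than in leaf, and in WT plants 15 were lower and 1 was higher, with median log2FC of -1.18 and -1.55 against 0.06 and 0.13 over all tested genes. KASII-B, for instance, averaged 21.2 ± 0.905 CPM in OE root and 79.5 ± 4.88 CPM in OE leaf. Of all tested genes, 37.4% were called lower and 40% higher in root in OE plants, and 35.9% lower and 41.8% higher in WT plants. Under total counts the split of the 18 was 12 lower and 4 higher in OE plants and 10 lower and 6 higher in WT plants. Of all 35968 tested genes, 9057 were then called lower and 21293 higher in OE plants, and 7792 lower and 23894 higher in WT plants.

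The remaining 9 named genes of the list had too few counts to test, and they include several that are active in developing seeds. LEC1-A, LEC1-B and ABI3-2, regulators of seed maturation, had 0 counts in all 12 libraries, as had OLEO1 and the sugar exporter gene SWEET24. In each library an observed 0 leaves room for an expected count of up to 3. ABI3-1 had 1 count in OE root and 1 in WT root. FAD2-1A, the seed oleate desaturase gene, had 18 counts over the OE leaf libraries, 15 of them in 1 library, and 4 over the WT leaf libraries, all in 1 library, and 0 in root.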

How the data were processed

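The authors deposited raw counts of reads over gene models, which come from featureCounts 2.0.1 run on exons of Wm82.a2.v1 in paired-end mode, with no strand option and no multi-mapping reads requested, per the file headers. No source used here names the aligner. The analysis used edgeR 4.0.16 under R 4.3.3. Libraries were scaled by TMM, filterByExpr kept 35968 genes, and a robust quasi-likelihood model with a term for each group was fitted to the 12 libraries, with 8 residual degrees of freedom. Adjusted p-values are Benjamini-Hochberg over all tested genes, and SE is the log2FC divided by the square root of F. CPM values use TMM-scaled sizes. Likeness used log2 CPM with a prior count of 2. Intervals of 95% come from the model.

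The genes described and the pathway and marker lists were chosen with earlier results of these data known. The symbol table (RefSeq, Glycine_max_v4.0) matched 0 of 43517 identifiers directly, so a name was kept where 1 gene of that symbol lay on the same chromosome with a span within 10%. This held for the 4 genes described, 27 of 54 pathway identifiers and 3 of 9 seed markers. The labels give the name GmZF351, and its identifier, Glyma.06G290100, was supplied with the series' description and not matched in the symbol table. Pathway genes named with values were, per comparison of OE with WT, the called genes of largest absolute log2FC, at most 6, and those named beyond them were chosen after their values were seen. Replicates of every group differed by more than sampling noise. Alternatives were DESeq2 1.42.0, other scalings and filters, single tissues, a replicate block and each library left out.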

Additional observations from a re-analysis of the deposited data

Results flagged for a closer look

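The OE effect differed between root and leaf for 4 lipid genes by the interaction term of the edgeR model, given as the effect in root minus that in leaf. The difference was 0.78 for KASII-B (SE 0.123, edgeR adjusted p = 1.2e-05), where OE over WT was -0.20 in root and -0.98 in leaf. It was 0.55 for KASI (SE 0.149, edgeR adjusted p = 0.00638), with 0.07 in root and -0.48 in leaf, and 0.49 for KASII-A (SE 0.129, edgeR adjusted p = 0.00506), with 0.09 in root and -0.40 in leaf. For FATB1a it was -0.68 (SE 0.122, edgeR adjusted p = 6.9e-05), with -0.07 in root and 0.61 in leaf. These 4 of the 18 tested lipid genes are 22.2%, close to the 22.8% of all tested genes called for the same difference. The 18 include SACPD-C, which had too few leaf counts for a difference to be called. Under total counts KASI (0.27, edgeR adjusted p = 0.189) and KASII-A (0.20, edgeR adjusted p = 0.248) were no longer called, and 1 of the 18 (KASII-B) had a positive and 5 had a negative difference past the threshold (DGAT2D, FATB1a, FATB1B, FAD2-2B and FAD2-2C). None of the WRI1 and DGAT1 genes was among them. Of all 35968 tested genes, 2377 had a positive and 9510 a negative difference past the threshold under total counts.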

How the results depend on the processing

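No alternative, left-out libraries included, brought a WRI1 or DGAT1 gene past the threshold for OE against WT in leaf, in root or for their difference, where the lowest edgeR or DESeq2 adjusted p-values were 0.0595, 0.108 and 0.0824. All their tissue calls held. Small effects turned sign. With total counts, DGAT1A in leaf was 0.30, and WRI1A and WRI1B in root were 0.0842 and 0.0119. With DESeq2 size factors and with DESeq2, DGAT1b was -0.0259 in leaf and 0.0599 and 0.0600 in the difference, which was 0.0043 with no filter. WRI1A in root was 0.0171 with the 6 root libraries alone. WRI1B was filtered out of the 6 leaf libraries alone, which gave no value.

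Replicate numbers did not pair libraries (correlations of same-numbered deviations -0.103 to 0.082). The fit with them as a block gave 14045 calls in leaf and 10219 in root, ended no call of these genes, and put WRI1A in root at 0.0010.

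Leaving out single libraries gave these ranges. In leaf WRI1B ran from -0.51 to 0.84, DGAT1A from -0.159 to 0.0578 and DGAT1b from -0.0656 to 0.114. In root WRI1A ran from -0.154 to 0.0834, WRI1B from -0.213 to 0.072 and DGAT1b from -0.0991 to 0.139. The difference ran from 0.39 to 0.92 for WRI1A, from -0.93 to 0.43 for WRI1B and from -0.13 to 0.11 for DGAT1b. The log2 ratio of WRI1A to WRI1B differed between OE and WT by -0.22 to 0.46 in leaf, where both ends rest on 1 WT leaf library because another has no ratio, and by -0.063 to 0.23 in root, and between root and leaf by -0.0567 to 0.32 in OE and by -0.21 to 0.47 in WT, again with 1 WT leaf library at both ends. Adding 0.5 counts to each copy put it at -1.45 for OE against WT in leaf and -1.39 for WT root against WT leaf, through the WT leaf library with 0 WRI1B counts.

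With total counts, lipid genes that rose and fell in leaf numbered 6 and 1, and 3 rose in root. Of all 35968 tested genes, 15977 rose and 3960 fell in leaf with that scaling, and 6387 rose and 4977 fell in root. The log2FC of KASI, NF-YA02 and KASII-A then was -0.10, -0.09 and -0.01, none past the threshold. Without single libraries 6 to 9 fell and 2 rose in leaf. In root 2 rose with the 6 root libraries alone and with DESeq2, and 1 to 2 rose and 0 to 1 fell without single libraries. WRI1 counts in leaf, 0 to 21 per library, limit what could be seen.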
